A study of Mus musculus with 15 samples.

Results

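Serpins are a family of proteins that share one fold and take part in the control of proteolysis. An inhibitory serpin offers an exposed loop to a protease, is cleaved there, and traps the enzyme in a covalent complex that is then cleared or degraded. Clade A serpins are mostly secreted inhibitors of plasma and tissue fluid, clade B serpins stay inside the cell and protect it from its own or incoming proteases, and a few members inhibit no protease and act as chaperones, hormone precursors or signalling proteins. In the glomerulus, serpins of clade E bear on fibrinolysis and matrix turnover.

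The 8 serpin genes described here are Serpina3n and Serpina10 of clade A, Serpinb9b, Serpinb9 and Serpinb6a of clade B, and Serpine2, Serpinf1 and Serpinh1 of clades E, F and H. They were 8 of 69 serpin family genes, counting every gene whose symbol starts with Serpin plus Agt, and 8 of 55416 genes in the table. The genes were chosen by name with the stretch responses in these samples already known, so their levels and changes under stretch are given as a description with no test.

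RNA was sequenced from 15 samples of SVI cells, a single conditionally immortalised mouse podocyte line that was differentiated and seeded on flexible silicone membranes. Podocytes are the epithelial cells of the kidney filtration barrier, and the stretching was meant to model raised pressure in the glomerulus. Experiment 1 held 3 unstretched samples and 6 samples under low stretch, with a membrane deflection labelled 5 to 6 mm, and experiment 2 held 3 unstretched samples and 3 under high stretch, labelled 7 to 8 mm (the design text names only the upper value of each range). All groups shared the line and the membranes, and amplitude and experiment were the same split, so the effect of a larger amplitude and that of the second experiment cannot be told apart. Comparisons were therefore made within an experiment, stretched against unstretched. How long the cells were stretched is not given in the sources used here, nor whether samples of a group came from separate cultures, so p-values measure only the spread between these samples, which may be technical.

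Library totals ran from 172.2 to 396.7 M counts (M, megacounts), and mitochondrial genes took 3.55% to 5.21% of them in experiment 1 and 1.14% to 2.60% in experiment 2. Of 12 podocyte marker symbols, 11 were matched in the table. Of these, 8 were above 1 CPM (counts scaled to 1 M of library size) on average in each group except high stretch, where 7 were. Nphs1, which marks mature podocytes, was below 1 CPM in all 4 groups, and Wt1 was below it under high stretch only. The summed level of 5 endothelial markers did not pass 0.272 CPM in any sample. Of 5 tubular markers, Lrp2 and Aqp1 were expressed, and the summed level of the list ran from 993 to 1370 and from 942 to 1260 CPM in the unstretched samples of experiments 1 and 2, against 481 to 802 under low and 324 to 477 under high stretch. Of 8 immune markers, Ms4a2, a mast cell receptor chain, made up most of a summed level of 340 to 893 and 60.9 to 189 CPM in the unstretched samples, 126 to 483 under low stretch and 16.4 to 25.8 under high stretch, while Ptprc, Cpa3 and Gata1 stayed below 1 CPM. The tubular sums of stretched samples lay below those of their unstretched samples without overlap, and the immune sums did so under high stretch but overlapped under low stretch. Both sums were lower on this scale where the clade A serpins were. The 2 expressed tubular markers differed in size of change: log2 fold changes under low and high stretch were -0.65 and -0.39 for Lrp2 and -1.85 and -3.62 for Aqp1. Under high stretch Lrp2 overlapped its unstretched samples, at 249 to 424.5 against 316.9 to 667.1 CPM. The immune markers did not move together: log2 fold changes under low and high stretch were -0.95 and -2.73 for Ms4a2. Cd68, the other immune marker above 1 CPM, had -0.12 and 0.86. The sum of 6 mesangial and fibroblast markers was 88.2 to 105 CPM unstretched and 57.2 to 78.4 under low stretch. In experiment 2 it was 124 to 164 unstretched and 102 to 128 under high stretch. The part of these lists in the serpin values was not tested. In bulk RNA, fewer cells that express a gene and less of its RNA per cell cannot be told apart.

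Upstream sequences are shown for 2 pairs of close relatives whose members can be compared with each other, and for the most abundant clade B gene. The 250 bases before the annotated start were read for 7 of the 8 genes (RefSeq, GRCm38.p6), and Serpina10 had no entry. Each sequence is written 5′ to 3′ in the direction of transcription, in lower case, with capitals at matches to 5 short motifs searched on both strands. The motifs were TTCNNNGAA (STAT), GGNNTTTCC (NF-kappaB), TGANTCA (AP-1), GGAATG (TEAD) and GAANNTTC (heat shock element), and they occurred in 7.02%, 4.93%, 6.75%, 12.6% and 6.69% of 32851 promoter windows of that length. None of the matches shown overlaps another. Serpina3n lies at chr12:104406458-104406707 (plus strand) and its paralogue Serpina3i at chr12:104262872-104263121 (plus strand).
Serpina3n: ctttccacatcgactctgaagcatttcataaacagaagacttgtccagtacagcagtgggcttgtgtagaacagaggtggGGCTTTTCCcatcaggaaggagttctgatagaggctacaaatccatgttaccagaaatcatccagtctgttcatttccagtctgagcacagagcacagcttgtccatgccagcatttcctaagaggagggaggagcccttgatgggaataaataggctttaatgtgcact
Serpina3i: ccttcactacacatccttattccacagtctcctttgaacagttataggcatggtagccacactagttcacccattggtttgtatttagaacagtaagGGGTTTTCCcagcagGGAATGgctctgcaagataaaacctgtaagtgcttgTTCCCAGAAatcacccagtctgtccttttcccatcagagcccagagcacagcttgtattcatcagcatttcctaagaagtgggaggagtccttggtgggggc
The falling gene Serpina3n held 1 match, to the NF-kappaB motif at bases -170 to -162 from the start, and Serpina3i held an NF-kappaB match at -153 to -145 as well as a STAT and a TEAD match. The 2 windows had 173 identical bases in 222 aligned positions, 62.2% of the alignment with its gaps. The pair Serpinb9 and Serpinb9b lie on the plus strand at chr13:33004291-33004540 and chr13:33027164-33027413. Both were higher under low stretch, whereas under high stretch the groups of Serpinb9 overlapped and those of Serpinb9b did not. Serpinb6a has an upstream start on the minus strand at chr13:34002795-34003044.
Serpinb9: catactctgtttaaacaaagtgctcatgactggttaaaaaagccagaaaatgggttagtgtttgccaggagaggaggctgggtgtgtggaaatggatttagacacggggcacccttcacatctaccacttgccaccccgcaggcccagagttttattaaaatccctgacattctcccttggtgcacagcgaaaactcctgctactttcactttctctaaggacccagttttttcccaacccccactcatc
Serpinb9b: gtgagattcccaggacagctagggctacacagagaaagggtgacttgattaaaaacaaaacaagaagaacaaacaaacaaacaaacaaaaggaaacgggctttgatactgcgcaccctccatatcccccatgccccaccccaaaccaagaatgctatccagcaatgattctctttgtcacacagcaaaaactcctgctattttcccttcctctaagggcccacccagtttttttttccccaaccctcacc
Serpinb6a: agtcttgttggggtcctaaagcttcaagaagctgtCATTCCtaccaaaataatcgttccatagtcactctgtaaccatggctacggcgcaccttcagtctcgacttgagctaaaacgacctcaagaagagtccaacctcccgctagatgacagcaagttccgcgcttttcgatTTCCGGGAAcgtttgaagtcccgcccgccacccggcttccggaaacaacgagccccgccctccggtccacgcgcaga
Serpinb9 and Serpinb9b shared 154 identical bases in 226 aligned positions, 56.2% of the alignment, and neither held a match to any of the 5 motifs. No pair other than these and the Serpina3 pair passed 50.9%. In those alignments Serpinb6a stood with its other listed start, at chr13:33936084-33936333, so the window shown was not aligned. The Serpinb6a window shown held a STAT match at -77 to -69 and a TEAD match at -215 to -210, and the window of the other start held no match. No match was found for Serpine2, Serpinf1 or Serpinh1. A match describes these letters only, and the submitters' processing notes name the build mm39, so these coordinates do not apply to their alignments.

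Both clade A genes were low in every stretched sample and high in every unstretched one. Serpina3n encodes a secreted inhibitor of serine proteases of leukocytes, such as granzyme B and cathepsin G, and is an acute phase gene. It stood at 1.29, 0.798 and 2.80 CPM in the unstretched samples of experiment 1, and its lowest, median and highest values under low stretch were 0.0287, 0.165 and 0.266 CPM. In experiment 2 it stood at 2.56, 3.36 and 2.91 CPM unstretched and at 0.0445, 0.0922 and 0.0282 CPM under high stretch. The groups did not overlap in either experiment: the highest stretched value was below the lowest unstretched one. The edgeR log2 fold change was -3.44 (SE 0.52), or 10.9-fold lower, under low stretch and -5.80 (SE 0.43), or 55.7-fold lower, under high stretch. These stretched levels rest on 8 to 85 counts per sample under low stretch and 7 to 13 under high stretch, against 264 to 877 and 397 to 800 in the unstretched samples.

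Serpina10, the protein Z-dependent inhibitor of coagulation factor Xa, was the more abundant of the pair in the unstretched samples of experiment 1 on the scale corrected for transcript length (TPM), with 4.30 to 8.01 TPM against 0.765 to 2.75 TPM. Unstretched samples of experiment 1 held 6.23, 7.97 and 4.49 CPM of it, and the low-stretch samples ran from 0.767 through a median of 1.20 to 1.76 CPM. Experiment 2 gave 5.37, 12.2 and 9.03 CPM unstretched and 0.320, 1.26 and 0.786 CPM under high stretch. Again no stretched sample reached an unstretched one. The log2 fold changes were -2.36 (SE 0.24; 5.13-fold lower) and -3.49 (SE 0.53; 11.2-fold lower). Both clade A changes were nominally larger in experiment 2, with log2 differences between the stretch effects of -2.39 (SE 0.82) for Serpina3n and -1.15 (SE 0.54) for Serpina10, which are descriptions. Of the 22015 genes in that contrast, edgeR called 0 after adjustment (0%), and 547 (2.48%) stayed under 0.05 before adjustment.

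The 3 clade B genes were higher under stretch, with 1 exception, Serpinb9 in experiment 2. Serpinb9b, an intracellular serpin of the same gene cluster as Serpinb9, stood at 1.82, 3.28 and 0.504 CPM in the unstretched samples of experiment 1, and its low-stretch values ran from 4.75 through a median of 12.2 to 22.0 CPM. Experiment 2 gave 0.515, 1.82 and 1.09 CPM unstretched and 14.1, 8.87 and 11.6 CPM under high stretch. All stretched samples lay above all unstretched ones of their experiment, and the log2 fold changes were 2.73 (SE 0.62; 6.63-fold higher) and 3.35 (SE 0.46; 10.2-fold higher).

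Serpinb9 is the inhibitor that protects cells from granzyme B. Unstretched samples of experiment 1 held 43.3, 36.3 and 35.3 CPM, and low stretch gave 56.5 to 80.9 CPM with a median of 67.9. In experiment 2 it was at 29.9, 32.6 and 45.4 CPM unstretched and at 43.4, 40.6 and 39.8 CPM under high stretch. The low-stretch group lay wholly above its unstretched samples, whereas the high-stretch values fell inside the unstretched range. Its log2 fold change was 0.82 (SE 0.12; 1.77-fold) under low stretch and 0.22 (SE 0.21; 1.16-fold) under high stretch, a log2 difference between the effects of -0.63 (SE 0.22).

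Serpinb6a encodes a broadly expressed intracellular inhibitor of trypsin-like proteases and cathepsin G. It was present at 124, 119 and 104 CPM in the unstretched samples of experiment 1 and at 159 to 209 CPM under low stretch, with a median of 168. The unstretched samples of experiment 2 held 99.2, 112 and 118 CPM and the high-stretch samples 246, 183 and 217 CPM. Neither pair of groups overlapped. The log2 fold changes were 0.60 (SE 0.11; 1.52-fold) and 0.99 (SE 0.19; 1.99-fold). Among the 3 clade B genes, the close relatives Serpinb9b and Serpinb9 had the largest and the smallest log2 fold change under high stretch.

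**Figure D1:**
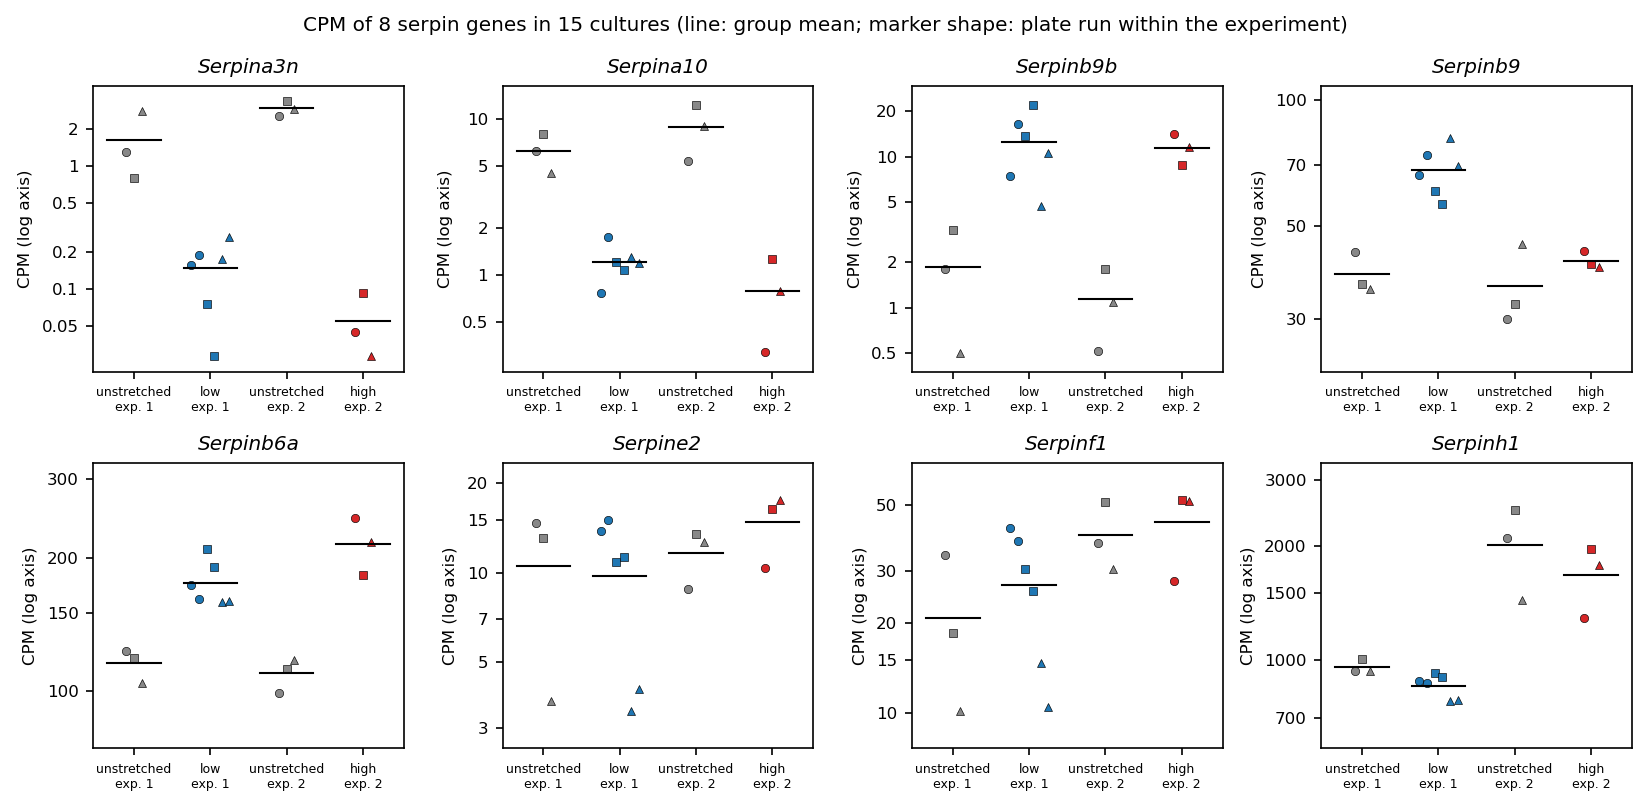
CPM of each of the 8 serpin genes (log axis, a separate scale per panel) in the 15 samples, by group; lines are group means and marker shapes are runs of neighbouring plate positions within an experiment. Serpina3n and Serpina10 lie lower and Serpinb9b and Serpinb6a higher in every stretched sample than in any unstretched sample of the same experiment.

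In CPM, stretched and unstretched groups of the remaining 3 genes overlapped, except for Serpinh1 under low stretch. Serpine2 (protease nexin-1), a cell surface inhibitor of thrombin and plasminogen activators, stood at 14.7, 13.1 and 3.70 CPM in the unstretched samples of experiment 1 and ran from 3.42 through a median of 11.1 to 15.02 CPM under low stretch. In experiment 2 it was at 8.80, 13.5 and 12.7 CPM unstretched and 10.4, 16.4 and 17.6 CPM under high stretch. The groups overlapped in both experiments, with log2 fold changes of -0.12 (SE 0.52) and 0.36 (SE 0.27). Its spread in experiment 1 followed the plate run, a run being neighbouring positions in the codes of the sample descriptions, with 1 unstretched sample in each: the 3 samples of run 3 held 3.70, 3.42 and 4.05 CPM, while the other 6 samples of the experiment held 10.9 to 15.02 CPM.

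Serpinf1 (pigment epithelium-derived factor) inhibits no protease and is a secreted antiangiogenic and neurotrophic factor. It was at 33.9, 18.6 and 10.1 CPM in the unstretched samples of experiment 1, with 10.5, 28.1 and 41.8 CPM as the lowest, median and highest under low stretch. Experiment 2 held 37.2, 51.2 and 30.6 CPM unstretched and 27.7, 52.2 and 51.7 CPM under high stretch. The groups overlapped, and the log2 fold changes were 0.36 (SE 0.46) and 0.16 (SE 0.29). Within runs of experiment 1, all 6 low-stretch samples were above the unstretched sample of their run, by 0.23, 0.59 and 0.30 on the log2 scale in runs 1, 2 and 3. Experiment 2 gave -0.43, 0.03 and 0.76 in runs 4, 5 and 6.

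Serpinh1 (Hsp47) is the collagen-specific chaperone of the endoplasmic reticulum and the most abundant of the 8 genes. Unstretched samples of experiment 1 held 936, 1005 and 932 CPM, and the low-stretch samples lay just below them, from 777 through a median of 872 to 924 CPM. In experiment 2 it was at 2097, 2496 and 1436 CPM unstretched and at 1288, 1968 and 1783 CPM under high stretch, so those groups overlapped. The log2 fold changes were -0.17 (SE 0.09) and -0.24 (SE 0.25). On the TPM scale the stretched samples lay below the unstretched ones without overlap in both experiments. Unstretched and low-stretch samples held 868 to 941 and 692 to 791 TPM in experiment 1. In experiment 2 unstretched and high-stretch samples held 1160 to 1310 and 862 to 1040 TPM.

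**Figure D2:**
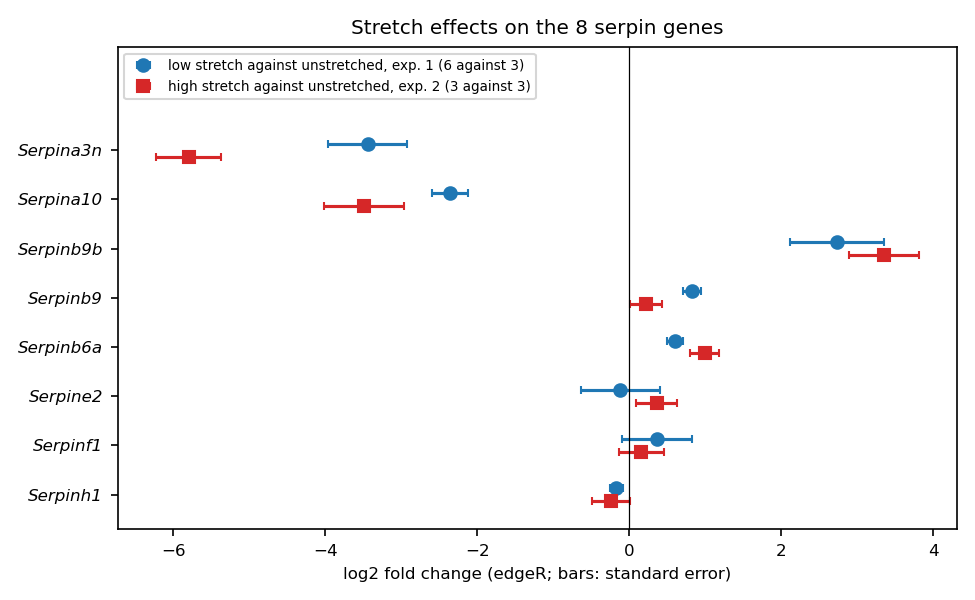
Log2 fold changes of the 8 genes under low stretch (circles, 6 against 3 samples) and high stretch (squares, 3 against 3), each against the unstretched samples of its experiment, with the standard error as bars. The clade A genes lie between -5.80 and -2.36, the clade B genes between 0.22 and 3.35, and the other 3 between -0.24 and 0.36.

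All 8 genes passed the filter on low counts in each comparison. At an adjusted p under 0.05, 5 of the 8 were called under low stretch (3 higher, 2 lower), beside 5.45% of 21672 genes tested (1.85% higher, 3.6% lower), and 4 of 8 under high stretch (2 higher, 2 lower), beside 3.47% of 18524 genes (1.31% higher, 2.16% lower). Groups did not overlap for 6 of the 8 under low stretch, beside 15.3% of all genes, and for 4 of 8 under high stretch, beside 20.6%. Since the genes were picked on these contrasts, nothing is read from those counts. Their median log2 fold change was 0.12 under low and 0.19 under high stretch, against 0.0077 and -0.022 over all genes tested.

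When each stretched sample was set beside the unstretched sample of its plate run, 4 of the 5 genes of clades A and B kept their direction in all 9 stretched samples. That had to follow, since the groups of those 4 genes did not overlap in either experiment, so it adds no support. The run values describe only the size of the differences. Serpina3n was lower in all 9 stretched samples, with log2 differences of -3.88 to -2.86 in the 3 runs of experiment 1 and of -6.36 to -5.08 in those of experiment 2. Serpina10 was lower in all 9 as well, with -2.80 to -1.84 and -4.04 to -3.27. Serpinb9b was higher in all 9, with run values of 2.40 to 3.80 and 2.28 to 4.75, and Serpinb6a in all 9, with 0.44 to 0.75 and 0.71 to 1.31. Serpinb9 was higher in all 6 low-stretch samples (0.69 to 1.09) and in 2 of 3 high-stretch samples, with -0.19 in run 6. Serpine2 gave run values between -0.25 and 0.48. Serpinh1 was lower in all 6 low-stretch samples (-0.26 to -0.10) and in 2 of 3 high-stretch samples, with 0.31 in run 6.

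**Figure D3:**
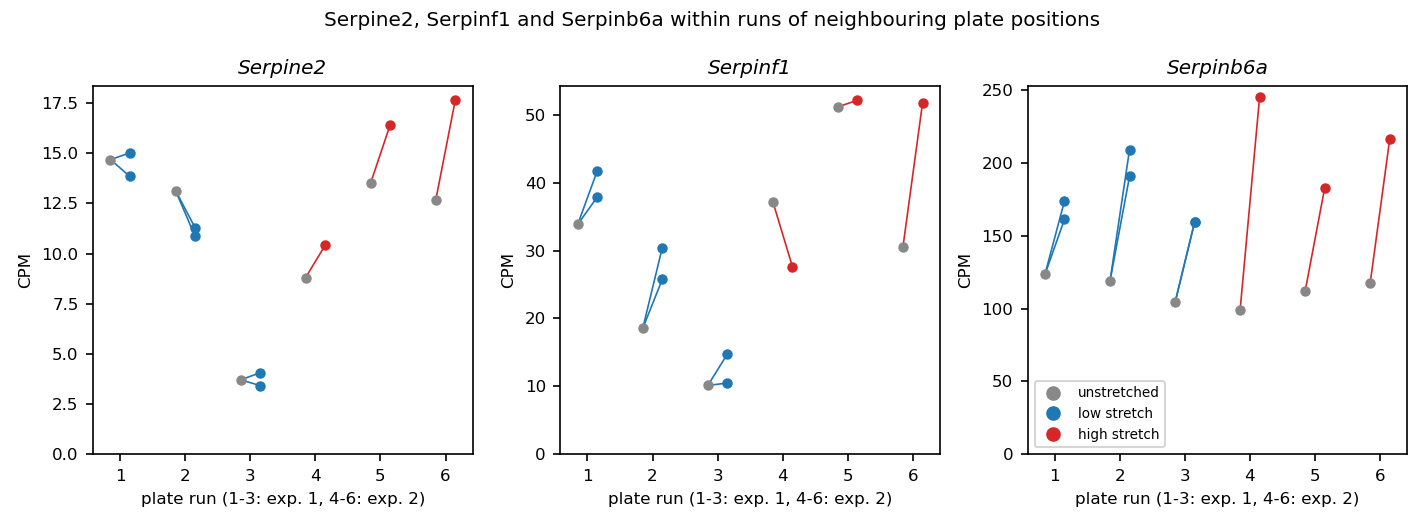
CPM of Serpine2, Serpinf1 and Serpinb6a by run of neighbouring plate positions (1 to 3 in experiment 1, 4 to 6 in experiment 2); lines join each stretched sample to the unstretched sample of its run. Serpine2 lies between 3.42 and 4.05 CPM in run 3 whether stretched or not, whereas Serpinb6a lies above its unstretched sample in all 9 stretched samples.

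Levels can be ranked between genes only per transcript length. On the TPM scale the unstretched samples of experiment 1 ranged from 868 to 941 for Serpinh1 and from 160 to 182 for Serpinb6a, with no overlap between these genes or with any below them. Serpinf1 (19.1 to 64.6) and Serpinb9 (20.5 to 25.7) overlapped each other, as did Serpine2 (3.79 to 14.3) and Serpina10 (4.30 to 8.01), and as did Serpina3n (0.765 to 2.75) and Serpinb9b (0.355 to 2.49) at the bottom. In the unstretched samples of experiment 2, Serpina10 (3.55 to 7.91 TPM) lay above Serpina3n (1.51 to 2.43) and Serpinb9b (0.219 to 0.967), with no overlap among the 3. Under high stretch their order was rearranged, again with no overlap. Serpinb9b was at 3.52 to 6.99 TPM, above Serpina10 at 0.201 to 0.682 TPM and Serpina3n at 0.0150 to 0.0506 TPM. The ratio of mean TPM gave the same signs as the count fit for Serpina3n (log2 ratio -3.57 low, -5.87 high), Serpina10 (-2.42, -3.73), Serpinb9b (2.65, 3.05) and Serpinb6a (0.49, 0.83). Signs were also the same for Serpine2 (-0.22, 0.26) and Serpinh1 (-0.28, -0.33). Serpinb9 under high stretch came to 0.05 and Serpinf1 to -0.01.

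The comparison between the 2 unstretched groups did not enter the choice of the genes and can be tested. Serpinh1 was 1.05 higher on the log2 scale (SE 0.23) in experiment 2, with an adjusted p of 0.00641 in edgeR's quasi-likelihood test, and all 3 samples of experiment 2 lay above all 3 of experiment 1. Of the 8 genes it was the 1 called by this test, beside 62.5% of 20707 genes called in this comparison (29.7% higher in experiment 2), so a difference at baseline was the usual case among all genes. In TPM the Serpinh1 groups did not overlap either, but the difference was smaller. Its unstretched means were 899 and 1230 TPM in experiments 1 and 2, against 957.5 and 2010 CPM. The TPM difference was not tested. Serpinf1 differed by 0.91 (SE 0.41, edgeR adjusted p = 0.0804) and Serpina3n by 0.84 (SE 0.42, edgeR adjusted p = 0.114). Adjusted p-values of the other 5 lay between 0.224 for Serpina10 and 0.810 for Serpine2. Leaving out 1 sample at a time gave calls also for Serpina3n (1.47 without replicate 3 of experiment 1), Serpinf1 (1.45 without replicate 1 of experiment 1) or Serpinb9 (-0.35 without replicate 3 of experiment 2), and Serpinh1 was called in all 11 alternative fits.

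Share of a transcript within its gene was likewise not used to choose the genes. Of 45 annotated member transcripts, 11 from 6 genes were tested with limma in each comparison, and 0 were called under low stretch (1 with an unadjusted p under 0.05) and 0 under high stretch (6 with an unadjusted p under 0.05), beside 0.0145% of 27672 and 0% of 23375 transcripts called, and 10% and 8.15% with an unadjusted p under 0.05. Those 6 include both transcripts of Serpinb9b and of Serpina10, whose shares mirror each other, so they are not 6 separate results. Serpinb6a-202 carried most of its gene, 82.4% ± 0.822 (SD, n = 3) unstretched and 85.2% ± 0.661 (n = 6) under low stretch, and 78.4% ± 1.02 and 82.4% ± 1.36 (n = 3 each) in experiment 2. Those groups did not overlap, and the limma log2 odds differences were 0.30 (SE 0.09, adjusted p = 0.361) and 0.38 (SE 0.15, adjusted p = 0.598). Serpina10 was split between Serpina10-202 and 1 other transcript, with Serpina10-202 at 71.0% ± 1.78 and 73.6% ± 3.21 in the unstretched and low-stretch samples and 75.7% ± 2.97 and 66.6% ± 11.3 in experiment 2 (limma adjusted p = 0.972 and 0.558). Serpina3n had a single transcript.

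Serpinb9b-202, a transcript annotated without a coding sequence, was listed at 0 in 2 of 3 unstretched samples of each experiment and in all 3 high-stretch samples. In the low-stretch samples it took 1.66% to 12.4% of the gene. Its log2 odds difference under high stretch was -3.87 (SE 0.60, limma adjusted p = 0.208). An exact 0 in these estimates can be a failed estimate, and with zeros on both sides the size of that difference depends on the pseudocount: with 1 TPM it was -2.15 (adjusted p = 0.0388).

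Among the other 61 serpin family genes, 56 had at least 1 count, 22 passed the filter under low stretch and 18 under high stretch. Under low stretch 6 of 22 were called (3 higher, 3 lower; 27.3%, beside 5.45% of all genes) with a median log2 fold change of 0.24, and under high stretch 4 of 18 (2 higher, 2 lower; 22.2%, beside 3.47%) with a median of -0.30. By clade, the calls among other clade A genes were 0 higher and 2 lower in each comparison (of 7 and 8 tested), and those among other clade B genes were 3 higher and 0 lower of 10 under low stretch and 1 higher and 0 lower of 6 under high stretch. Most of the 61 did not pass the filter on low counts, and close paralogues can exchange reads in the counting. A gene could pass that filter through 1 group alone, which ties the direction of its call to the filter. Serpind1 had 18 to 34 counts unstretched and 2 to 11 under low stretch. In experiment 2 Serpinb9c had 1 to 10 counts unstretched and 32 to 58 stretched, and Serpina1b had 30 to 33 and 6 to 12. Nothing is read from the direction of such calls. Leaving out unstretched replicate 1 or 3 gave 3 calls under low stretch, beside 1.71% and 0.998% of all genes. Under high stretch the count was 1 without high-stretch or unstretched replicate 1 (0.488% and 0.628% of all genes) and 2 without high-stretch replicate 2 (1.5%). It was 0 without high-stretch replicate 3 (0.0755%) and 7 without unstretched replicate 3 (7.77%).

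Agt, the clade A member that encodes angiotensinogen, a hormone precursor with no inhibitory activity, stood at 2.12, 1.19 and 2.20 CPM in the unstretched samples of experiment 1 and at 0.169 to 0.529 CPM under low stretch (median 0.329). Experiment 2 gave 4.12, 5.73 and 4.14 CPM unstretched and 0.162, 0.695 and 0.456 CPM under high stretch. It fell by 2.39 (SE 0.30, edgeR adjusted p = 0.00391) and by 3.42 (SE 0.49, edgeR adjusted p = 0.0132) on the log2 scale, close to the values of Serpina10. The low-stretch call was kept in all 9 fits that left out 1 sample, the high-stretch call in 5 of 6. Serpina9 fell by 0.83 under low stretch (edgeR adjusted p = 0.0217), and Serpina1b, an alpha-1-antitrypsin gene of the mouse, fell by 1.97 under high stretch (edgeR adjusted p = 0.0427) and had -0.01 under low stretch (edgeR adjusted p = 0.992). Serpina9 was called in 6 of 9 and Serpina1b in 1 of 6 of those fits.

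Of the other clade B genes, Serpinb9c, Serpinb1c and Serpinb6b were called under low stretch and Serpinb9c under high stretch. Serpinb9c was at 0.0531, 0.0604 and 0.0223 CPM unstretched in experiment 1 and at 0.156 to 0.405 CPM under low stretch (median 0.203), and at 0.00644, 0.00741 and 0.0364 CPM against 0.235, 0.227 and 0.173 CPM in experiment 2. It rose by 2.31 (SE 0.40, edgeR adjusted p = 0.0109) and 3.40 (SE 0.58, edgeR adjusted p = 0.0228), and was called in 8 of 9 and 2 of 6 fits with 1 sample left out. Serpinb1c, a paralogue of the neutrophil elastase inhibitor Serpinb1a, rose by 1.84 (SE 0.24, edgeR adjusted p = 0.00488) under low stretch and had 1.81 (SE 0.48, edgeR adjusted p = 0.0936) under high stretch. Serpinb6b, a paralogue of Serpinb6a, rose by 0.85 (edgeR adjusted p = 0.0449) under low stretch, a call kept in 2 of 9 fits with 1 sample left out, and had -0.03 (edgeR adjusted p = 0.988) under high stretch. Serpinb8 (-0.71 and -0.65, edgeR adjusted p = 0.255 and 0.797) and Serpinb1a (1.06 and 0.01, edgeR adjusted p = 0.0807 and 0.997) were not called in either comparison. With the plate run as a block both were called under low stretch (-0.78 and 1.02, edgeR adjusted p = 0.000615 and 0.0209), and Serpinb1c was also called under high stretch (1.83, edgeR adjusted p = 0.00995), as was Serpina9 (-1.06, edgeR adjusted p = 0.0196). Those fits called 11 and 8 of the other serpins, beside 28.2% and 8.35% of all genes.

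Outside those clades, Serpind1, heparin cofactor II, fell by 1.87 under low stretch (edgeR adjusted p = 0.0185) at a level of at most 0.1003 CPM, and was called in 7 of 9 fits with 1 sample left out. Serping1 and Serpina3g had at most 9 and 5 counts in any sample and were not tested.

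**Figure D4:**
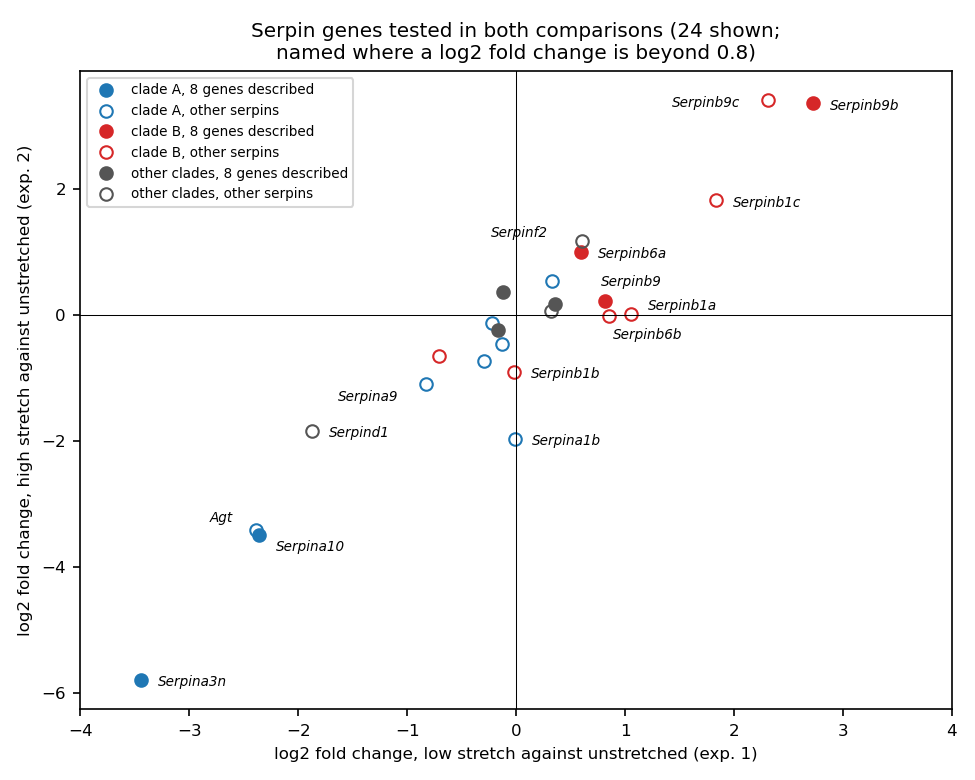
Log2 fold change of 24 serpin family genes among those tested in both comparisons, under low stretch (horizontal axis) and high stretch (vertical axis), coloured by clade; filled circles are the 8 genes described, open circles other serpins. Serpina3n, Serpina10 and Agt lie at the lower left and Serpinb9b, Serpinb9c and Serpinb1c at the upper right, while Serpinb9 and Serpinb6b lie right of 0 near the horizontal line.

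Close paralogues of Serpina3n and Serpinb9b had low counts. Serpina3i had 1.75% to 6.80% as many counts as Serpina3n in the unstretched samples, 5 to 27 in all, and at most 4 in a stretched sample, where Serpina3n was itself at 7 to 85 counts and the share reached 25% under low and 57.1% under high stretch. Serpina3m had 1 to 17 counts unstretched and 0 in all 9 stretched samples. Serpinb9c had 0.407% to 4.43% as many counts as Serpinb9b over all samples, and Serpinb9d, Serpinb9e and Serpinb9g at most 1.25%. How many reads of these paralogues came from the abundant gene cannot be told from gene counts. How the counting treated strand and reads with several matches is not given in the sources used here.

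Proteases that serpins inhibit, their receptors and cofactors were taken from a list of 56 genes. Under low stretch 34 were tested and 6 called (2 higher, 4 lower; 17.6%, median 0.21), and under high stretch 33 were tested and 2 called (1 higher, 1 lower; 6.06%, median 0.23), beside 5.45% and 3.47% of all genes. Plxdc1, a receptor of Serpinf1, went from 5.92 to 8.84 CPM unstretched to 1.37 to 4.69 CPM under low stretch, a fall by 1.44 (SE 0.33, edgeR adjusted p = 0.0328), and from 17.3 to 19.4 CPM to 1.82 to 3.67 CPM under high stretch, a fall by 2.64 (SE 0.29, edgeR adjusted p = 0.00592). Its relative Plxdc2 fell by 0.45 under low stretch (edgeR adjusted p = 0.0186). Lrp2, an endocytic receptor, fell by 0.65 (edgeR adjusted p = 0.0227), and Prtn3, the neutrophil protease proteinase 3, fell by 0.90 (edgeR adjusted p = 0.0382) at a level of at most 0.375 CPM. F2r, the thrombin receptor, and Ctsl, the protease cathepsin L, rose by 0.35 (edgeR adjusted p = 0.0207) and 0.46 (edgeR adjusted p = 0.0181).

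Mcpt8, a basophil protease, rose by 3.98 (SE 0.84, edgeR adjusted p = 0.0457) under high stretch, from 0.0255 to 0.452 CPM to 1.95 to 3.83 CPM, a call kept in 2 of 6 fits with 1 sample left out. Plxdc1 kept its call in 3 of 9 such fits under low and 5 of 6 under high stretch, Prtn3 in 2 of 9, Lrp2 in 5 of 9, and Plxdc2, F2r and Ctsl each in 7 of 9 under low stretch. Targets and the clearance receptor of clade E serpins were not called without a block: Plat had 0.54 and 0.23 (edgeR adjusted p = 0.222 and 0.732), Plau -0.01 and 0.47 (edgeR adjusted p = 0.988 and 0.568), and Lrp1, which takes up serpin-protease complexes, -0.45 and -0.09 (edgeR adjusted p = 0.0585 and 0.903). With the plate run as a block, Plat (0.48, edgeR adjusted p = 0.0378), Lrp1 (-0.46, edgeR adjusted p = 0.0025) and Mcpt8 (2.84, edgeR adjusted p = 0.000419) were called under low stretch. Prtn3 was then also called under high stretch (-1.67, edgeR adjusted p = 0.00171). In those fits the list held 21 calls under low and 10 under high stretch, beside 28.2% and 8.35% of all genes. Single samples moved the number of calls in this list and the share of all genes called (in brackets). Under low stretch the list held 1 call without unstretched replicate 1 (1.71%), 3 without low-stretch replicate 4 (2.81%) and 0 without unstretched replicate 3 (0.998%). Under high stretch it held 1 without unstretched replicate 1 (0.628%) or high-stretch replicate 1 (0.488%) or 2 (1.5%). It held 0 without high-stretch replicate 3 (0.0755%) and 11 without unstretched replicate 3 (7.77%).

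Serpinh1 works beside the enzymes that modify and fold collagen, and 21 of 22 listed gene symbols of that kind were matched and tested. A symbol without a match need not be a gene absent from the table. Between the unstretched groups 15 of 21 were called, 13 higher in experiment 2, as Serpinh1 was, and 2 lower (Plod2 and Mia3). This is 71.4%, beside 62.5% of all genes, with a median of 0.97 against -0.072 over all genes. Ppib and P4hb were 1.18 and 1.09 higher (edgeR adjusted p = 0.00533 and 0.00539). These baseline values are in counts, in which the difference of Serpinh1 was larger than in TPM. Under stretch the list held 3 calls of 21 under low stretch (14.3%, median -0.06) and 1 of 21 under high stretch (4.76%, median -0.11). These stand beside 5.45% and 3.47% of all genes. P3h2, a prolyl hydroxylase of collagen, fell by 0.68 (SE 0.14, edgeR adjusted p = 0.0210) and by 1.32 (SE 0.28, edgeR adjusted p = 0.0457). P3h1 fell by 0.35 (edgeR adjusted p = 0.0317) and Kdelr3, a receptor that returns chaperones to the endoplasmic reticulum, rose by 0.56 (edgeR adjusted p = 0.0171) under low stretch. P3h2 kept its calls in 6 of 9 and 2 of 6 fits with 1 sample left out, P3h1 in 4 of 9 and Kdelr3 in 7 of 9. The count under low stretch was 0 without unstretched replicate 1 or 3 (1.71% and 0.998% of all genes). Under high stretch it was 0 without unstretched replicate 1 (0.628%) or any 1 of the high-stretch samples (0.0755% to 1.5%), and 3 without unstretched replicate 3 (7.77%). With the plate run as a block, 10 genes of the list were called under low and 3 under high stretch, beside 28.2% and 8.35% of all genes in those fits. Kdelr3 was then also called under high stretch (0.72, edgeR adjusted p = 0.0424).

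As a description of how the genes varied together, each was correlated over the 15 samples after its log2 CPM was centred on the unstretched mean of its experiment. The points share the split into stretched and unstretched samples, so any 2 genes that respond correlate. Serpina3n and Serpina10 had r = 0.904 with each other and -0.963 and -0.917 with Serpinb6a, and Serpinb9b had 0.908 with Serpinb6a. Serpinb9 stood apart from its clade, with 0.577 against Serpinb9b and 0.469 against Serpinb6a. Serpine2 and Serpinf1 had 0.821 with each other and between -0.253 and 0.352 with the clade A and B genes.

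Among 12936 genes with a mean of at least 1 CPM, those most like Serpina3n in this measure were C4bp (r = 0.973) and Cnmd (0.972), and those most like Serpina10 were Asrgl1 (0.974) and Agt (0.958). Il1rl1 (0.969) and Fyn (0.964) were closest to Serpinb9b, and Smu1 (0.981) and Rtn4 (0.978) to Serpinb6a. The nearest gene to Serpinb9 was another clade B serpin, Serpinb6b (0.939), followed by Gm14121 (0.874). Kcnf1 (0.928) and Id1 (0.914) were closest to Serpine2, Ckap4 (0.917) and Serinc2 (0.887) to Serpinf1, and Sppl2b (0.976) and Scrib (0.975) to Serpinh1.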

How the data were processed

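Gene counts were deposited by the authors as whole numbers per gene, and transcript levels were deposited as TPM, which keep no depth. The submitters' processing notes name mm39, STAR 2.7.5c, featureCounts, Subread 2.0.0, DESeq2 1.38.3 and Salmon 1.9.0, without saying which step each served. Symbols came from GENCODE M21 (52083 of 55416 genes and 137189 of 140789 transcripts matched). Gene tests used edgeR 4.0.16 under R 4.3.3 (TMM, filterByExpr, quasi-likelihood F test, Benjamini-Hochberg adjustment at 0.05). An SE equals |log2 fold change| over the root of F, and CPM use TMM-scaled library sizes. Transcript shares were tested with limma 3.58.1 on the log2 odds of a transcript against the rest of its gene (pseudocount 0.1 TPM on each), for genes with a mean of at least 1 TPM and mean fractions of 0.05 to 0.95. Groups came from the sample titles. The members and lists were chosen with earlier results of these data known. Named genes were all members, other serpins called in a stretch comparison plus a short fixed list, at most 6 called genes per list, and the 2 most like genes by r; some genes of the lists are not reported here. The fits used no block: same-numbered samples did not deviate together in every pair. Samples of 1 plate run did in experiment 1 but not in every pair of experiment 2, so values with the plate run as a block stand beside the results whose calls they change. The tests were tested on simulated data. Alternatives were DESeq2 1.42.0, RLE size factors, other filters (none, or a mean count of at least 100), other pseudocounts, blocks, all 15 samples in one fit and each sample left out.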

Additional observations from a re-analysis of the deposited data

Results flagged for a closer look

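Among 26 serpin and listed genes examined in the group of 6 low-stretch samples, 1 value lay far from the others. Serpinb9c stood at 0.4051 CPM in low-stretch replicate 4, the next highest sample was at 0.2229 CPM, and the gap took 0.733 of the group's range, above Dixon's critical value for 6 samples. Chance flags about 1 in 20 such groups. None of the 8 members was flagged.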

How the results depend on the processing

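Calls among other serpins under low stretch numbered 6, and 3 with a mean count of at least 100, 11 with the plate run as a block and 3 to 6 with 1 sample left out. Protease list calls numbered 6, and 2 with the replicate block, 21 with the plate run block, 1 with all 15 samples in one fit and 0 to 8 with 1 sample left out. Collagen folding calls numbered 3, and 5 in DESeq2, 0 with the replicate block, 10 with the plate run block, 0 with all 15 samples and 0 to 3 with 1 sample left out. Under high stretch the other serpins gave 4 calls, and 7 in DESeq2, 2 with a mean count of at least 100, 8 with the replicate or plate run block (the same split there), 8 with all 15 samples and 0 to 7 with 1 sample left out. The protease list gave 2, and 9 in DESeq2, 7 with no filter, 1 with a mean count of at least 100, 10 with either block, 6 with all 15 samples and 0 to 11 with 1 sample left out. The collagen list gave 1, and 2 in DESeq2, 0 with a mean count of at least 100, 3 with either block, 2 with all 15 samples and 0 to 3 with 1 sample left out. At baseline 1 member was called, and 2 with no filter, 3 with the replicate block (Serpina3n, Serpinf1 and Serpinh1) and 1 to 2 with 1 sample left out. Member transcripts called under high stretch numbered 0, and 2 with a pseudocount of 1 TPM or all 15 samples in one fit, both of Serpinb9b. The share of all genes called moved with these counts: from 5.45% to 2.3% with the replicate block, 28.2% with the plate run block, 2.91% with all 15 samples in one fit and 11.7% in DESeq2 under low stretch, and from 3.47% to 8.35% with either block, 6.76% with all 15 samples and 5.9% in DESeq2 under high stretch. With 1 sample left out, the share of all genes called ran from 0.998% to 7.57% under low and from 0.0755% to 7.77% under high stretch. The causes were not tested.

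The replicate numbers did not pair the samples: same-numbered samples of experiment 1 correlated at -0.451 to 0.379 in their deviations from the group means, those of experiment 2 at -0.167 to 0.459, and samples of 1 plate run in experiment 1 at 0.336 to 0.585. Over the alternatives the log2 fold change of Serpina3n ran from -3.76 to -2.82 under low and from -6.26 to -5.43 under high stretch, that of Serpina10 from -2.56 to -2.13 and from -3.96 to -3.12, that of Serpinb9b from 2.28 to 3.43 and from 3.00 to 3.86, and that of Serpinb6a from 0.52 to 0.64 and from 0.87 to 1.13. Serpine2 changed sign under low stretch (-0.52 to 0.54). With 1 sample left out, Serpinb9b passed the threshold in 4 of 9 fits under low stretch and Serpinb6a in 2 of 6 under high stretch. Over all genes, leaving out high-stretch replicate 3 left 14 calls (0.0755%).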

Other observations

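Serpinb6b, the paralogue of Serpinb6a, was lower in the unstretched samples of experiment 2 on both scales (40.7 to 58.6 against 11.9 to 33.7 TPM), with a log2 difference of -0.77 in counts (edgeR adjusted p = 0.0346). Agt was higher there, by 1.33 (edgeR adjusted p = 0.00660), and so was Serpina1b, by 2.13 (edgeR adjusted p = 0.00539).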
